A study of Mus musculus with 6 samples.

Results

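The matrix metalloproteinases (MMPs) and their tissue inhibitors (TIMPs) were examined in bulk RNA sequencing of subcutaneous CT26.WT tumors. The genes were chosen by name, as the rows of the gene count table whose symbol was Mmp2, Mmp3, Mmp9, Mmp10, Mmp12, Mmp13, Mmp14, Timp1, Timp2 or Timp3. All 10 were found among the 55487 genes of the table. CT26.WT is a colon carcinoma line of BALB/c mice, labelled wild type, and the series holds 3 tumors of the control group and 3 tumors of the IFN-γ group. According to the methods, male immunocompetent BALB/c mice that were 4 weeks old at purchase received CT26.WT cells under the skin. Every 48 h, IFN-γ mice then had 100 µL of the cytokine (100 ng/ml) injected into a tail vein, control mice had PBS injected, and tumors were followed to a fixed diameter. The comparison asks which transcripts differ between tumors that grew with and without injected IFN-γ.

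MMPs are zinc endopeptidases that cut collagens, basement membrane proteins, proteoglycans and many growth factors and receptors at the cell surface. Most are secreted as inactive zymogens whose propeptide has to be removed, often by plasmin or by another MMP, whereas MT1-MMP, the product of Mmp14, sits in the plasma membrane. TIMPs bind the active site of the mature enzyme, so proteolysis depends on the balance of enzyme and inhibitor as well as on activation. In tumors, fibroblasts, macrophages, neutrophils and the cancer cells themselves can all make these proteins. Transcription of the secreted stromelysins and collagenases is classically driven through AP-1 sites close to the start of the gene.

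Tumors had 15759300 to 17559680 counts on genes. Levels are given as CPM, counts scaled to a common library size with TMM factors, and 3 counts in a tumor amount to 0.169 to 0.188 CPM, which is taken as the limit that a count of 0 allows, for counting error only. Of the cell type markers checked against the labels, several defining epithelial genes were nearly absent in these tumors. Cdx2 had 0 counts in every tumor, Epcam did not exceed 0.928 CPM and Cldn7 did not exceed 0.0564 CPM, while Krt20 lay between 113 and 271 CPM. IFN-γ tumor 3 stood apart from its group. Across 18 IFN-γ response genes, the median log2 ratio to the control mean was 1.06 in IFN-γ tumor 1, 1.06 in IFN-γ tumor 2 and -0.06 in IFN-γ tumor 3. A set of 7 keratinocyte markers summed to 72.4 CPM in IFN-γ tumor 3 and to between 2.75 and 12.6 CPM in the other 5 tumors. The members are therefore given with and without that tumor. The labels do not say that the tumors came from separate mice, so the p-values measure only the spread between these tumors, and in bulk tissue fewer cells of a type and less RNA per cell cannot be told apart.

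None of the 9 members that passed the filter on low counts differed between the groups at an adjusted p under 0.05 (edgeR quasi-likelihood test, Benjamini-Hochberg adjustment over 15114 genes), against 0.112% of all genes tested. Their adjusted p ran from 0.437 to 0.952. At an unadjusted p under 0.05 there were 2 members, Mmp9 and Mmp3, against 10.2% of all genes. Each of the 14 other fits, DESeq2 among them, likewise put 0 members past the threshold. The control and IFN-γ values did not overlap for 2 members, Mmp3 and Timp2, both higher in the IFN-γ tumors, against 15.1% of all genes in either direction and 7.62% in that direction. The log2 fold change was above 0 for 5 members and under 0 for 4, with a median of 0.02 against 0.00 for all genes. Mmp10 was under the filter and was not part of that test.

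**Figure D1:**
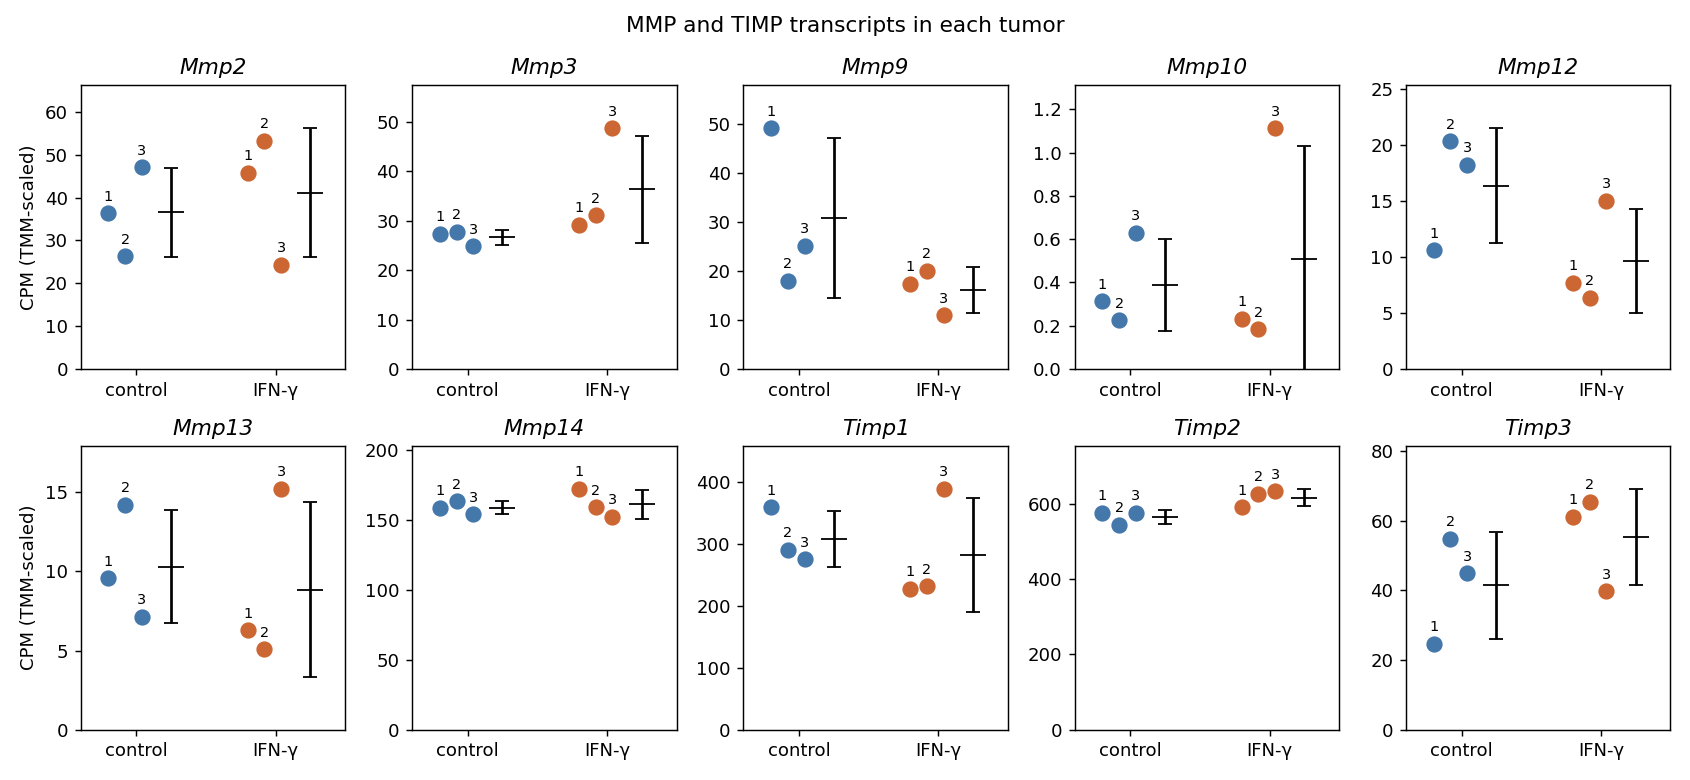
Level of each MMP and TIMP gene in CPM (TMM-scaled, axis from 0) in control tumors 1 to 3 (blue) and IFN-γ tumors 1 to 3 (orange), with the tumor number at each point, and mean ± SD of each group (n = 3) as bars. The lower bar of Mmp10 in the IFN-γ group passes under 0 and ends at the axis. Mmp14 and Timp2 were close to even across all 6 tumors, and IFN-γ tumor 3 lay apart from IFN-γ tumors 1 and 2 for most of the others.

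The members fell into even and variable genes. Mmp14 and Timp2 varied little, with standard deviations of 0.06 and 0.08 on the log2(CPM + 0.5) scale over the 6 tumors. Of 11331 genes with a mean of at least 5 CPM, 7.85% had a smaller value than Mmp14 and 16.6% a smaller value than Timp2. The most variable members were Mmp9 (0.70), Mmp12 (0.65) and Mmp13 (0.61), each above at least 98.0% of those genes. Their differences arose within the groups as well as between them.

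**Figure D2:**
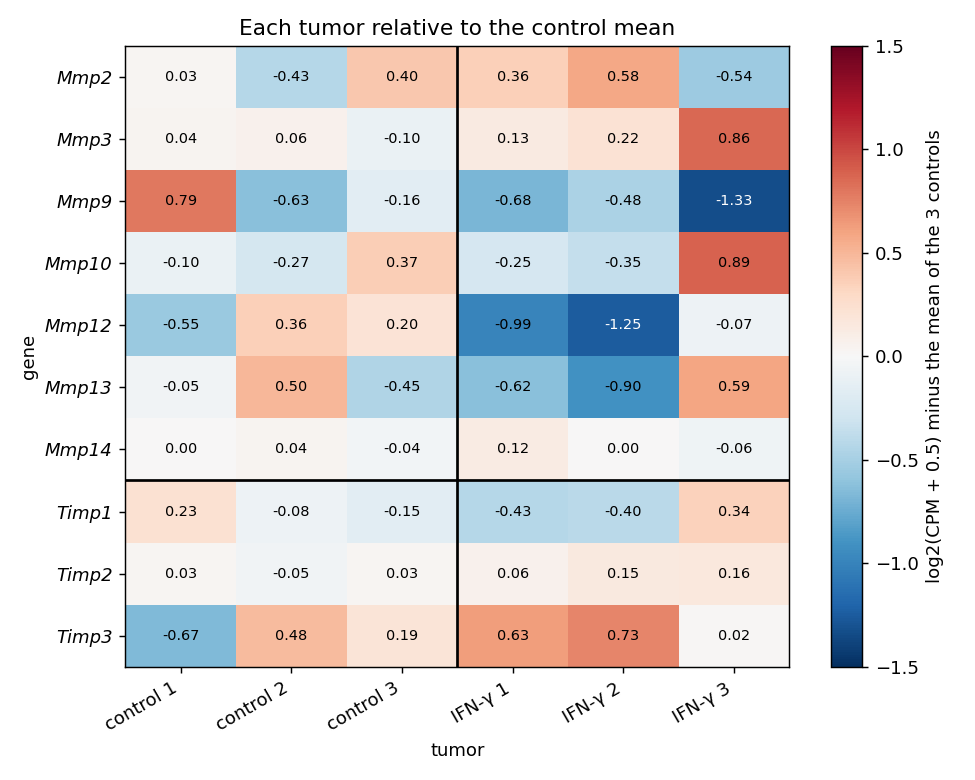
Difference of log2(CPM + 0.5) in each tumor from the mean of the 3 control tumors, for 7 MMP genes and 3 TIMP genes (colour scale from -1.5 to 1.5, value printed in each cell). IFN-γ tumors 1 and 2 had the same sign for all 10 genes, and IFN-γ tumor 3 had the opposite sign to both for Mmp2, Mmp10, Mmp13, Mmp14 (by at most 0.12) and Timp1.

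Of the members, 4 lie together in an MMP cluster on chromosome 9 (GRCm38). In order along the plus strand they are Mmp13 (chr9:7272514-7283331), Mmp12 (chr9:7344381-7369499), Mmp3 (chr9:7445822-7455975) and Mmp10 (chr9:7502352-7510240). Mmp1b, on the minus strand, overlaps the end of Mmp12 and extends toward Mmp3, and Mmp8, Mmp27, Mmp20 and Mmp7 follow Mmp10. Within the IFN-γ group, all 4 clustered members were highest in IFN-γ tumor 3. So were Timp1, Timp2 and Mmp19, which lie outside the cluster, so this was not particular to the clustered genes. The 150 bases before the RefSeq starts of the 4 clustered members (GRCm38.p6, plus strand, 5′ to 3′) are shown. The windows of Mmp13, Mmp3 and Mmp10 and 1 of the pair of Mmp12 windows hold the letters of the AP-1 element. Capitals mark matches to TGANTCA, where N is any base, a motif that reads the same on both strands.
Mmp13, chr9:7272364-7272513: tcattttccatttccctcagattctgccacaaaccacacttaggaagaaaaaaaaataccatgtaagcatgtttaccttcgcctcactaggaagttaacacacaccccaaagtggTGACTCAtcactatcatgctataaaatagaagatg
Mmp12, start at the 5′ member of its pair of RefSeq starts, chr9:7344247-7344396: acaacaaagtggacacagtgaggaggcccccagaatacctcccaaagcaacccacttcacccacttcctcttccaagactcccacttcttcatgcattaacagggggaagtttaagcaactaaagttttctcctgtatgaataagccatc
Mmp12, start at the 3′ member of its pair of RefSeq starts, chr9:7347224-7347373: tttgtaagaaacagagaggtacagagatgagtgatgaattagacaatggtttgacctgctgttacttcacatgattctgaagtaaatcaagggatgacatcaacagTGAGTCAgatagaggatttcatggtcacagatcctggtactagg
Mmp3, chr9:7445672-7445821: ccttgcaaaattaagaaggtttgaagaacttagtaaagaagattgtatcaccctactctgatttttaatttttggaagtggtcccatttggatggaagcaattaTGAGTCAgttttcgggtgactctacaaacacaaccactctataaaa
Mmp10, chr9:7502192-7502341: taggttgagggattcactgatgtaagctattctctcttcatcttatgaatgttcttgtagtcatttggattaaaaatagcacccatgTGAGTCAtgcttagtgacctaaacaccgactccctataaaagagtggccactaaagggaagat

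RefSeq windows of 300 bases, 250 before and 50 after the start, were at hand for 8 of the 10 members, with 9 windows because Mmp12 had a pair. TGANTCA was found in 4 of the 9 windows, those printed other than the 5′ window of Mmp12, against 7.81% of 32851 mouse promoter windows. All 4 belong to related genes of the chromosome 9 cluster, so they are not independent of each other. The windows of Mmp14, Timp1, Timp2 and Timp3 did not hold it, and Mmp2 and Mmp9 had no window. Counted back from the start, the match lay at -35 to -29 in Mmp13, at -44 to -38 in the 3′ window of Mmp12, at -46 to -40 in Mmp3 and at -63 to -57 in Mmp10. In the windows of Mmp13, Mmp3 and Mmp10, the TATA letters TATAAA stood between the AP-1 letters and the start, and TATAAA was found in 4 windows in all, against 13.6% of all promoters on either strand. The Ets core GGAAGT, searched on both strands, was present in 5 windows against 23.8% of all promoters. The letters TTCNNNGAA, the form bound by STAT dimers that also reads the same on both strands, were in 0 of the 9 windows against 8.30% of all promoters. None of these motifs overlapped TGANTCA in the printed sequences. A match is a description of letters and not of binding.

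Mmp3 encodes stromelysin-1, which cuts proteoglycans, laminin and fibronectin and activates other pro-MMPs. Mmp3 stood at 27.3, 27.7 and 24.9 CPM in control tumors 1 to 3 and at 29.2, 31.1 and 48.7 CPM in the IFN-γ group, given in the same order of tumors here and for the other genes. The groups did not overlap, but IFN-γ tumors 1 and 2 lay just above the highest control and IFN-γ tumor 3 far above it. The means were 26.6 ± 1.56 and 36.3 ± 10.8 CPM (SD, n = 3), with a log2 fold change of 0.45 ± 0.19 (SE) and an adjusted p of 0.465 (edgeR). Leaving out IFN-γ tumor 3 gave a log2 fold change of 0.17 with an adjusted p of 0.471.

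Mmp10 encodes stromelysin-2, a close paralogue of Mmp3 with similar substrates. Mmp10 had 5, 4 and 11 counts in the control tumors and 4, 3 and 18 counts in the IFN-γ tumors, or 0.313, 0.226 and 0.629 CPM against 0.232, 0.183 and 1.11 CPM. Apart from control tumor 3 and IFN-γ tumor 3, these values were near the detection limit, and the groups overlapped. An exact two-sided permutation test of the mean CPM gave p = 0.9, where 0.1 is the smallest p that 3 against 3 can give. IFN-γ tumors 1 and 2 alone had a mean of 0.208 CPM. Reads that fit both Mmp3 and Mmp10 may have been assigned to either, so the level of Mmp10 is uncertain. With no filter on low counts, edgeR gave Mmp10 a log2 fold change of 0.38 and an adjusted p of 0.902.

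Mmp12 encodes macrophage metalloelastase, which degrades elastin and is made chiefly by macrophages. Mmp12 reached 10.6, 20.3 and 18.2 CPM in the control tumors and 7.66, 6.35 and 15.0 CPM in the IFN-γ tumors. IFN-γ tumors 1 and 2 were under all 3 controls, and IFN-γ tumor 3 lay within the control range. The means were 16.3 ± 5.12 and 9.66 ± 4.64 CPM (SD, n = 3), the log2 fold change was -0.76 ± 0.35 (SE) and the adjusted p was 0.504 (edgeR). Leaving out IFN-γ tumor 3 gave a log2 fold change of -1.23 with an adjusted p of 0.052, the lowest adjusted p of any member in any fit, still on the far side of the 0.05 threshold, with 3.18% of all genes past it in that fit. The 10 macrophage markers summed to 3686, 4136 and 4380 CPM in the control tumors and to 5584, 6751 and 4076 CPM in the IFN-γ tumors, with C1qa, a complement component made by macrophages, at 404 to 479 and 534 to 780 CPM. Of these 10 markers, 0 passed the threshold and 8 had an unadjusted p under 0.05, against 10.2% of all genes. Among the 8 was Mrc1, the mannose receptor, which was lower in all 3 IFN-γ tumors (391 to 433 CPM in the controls, 322 to 369 CPM in the IFN-γ tumors). The other 9 markers had log2 fold changes above 0. The part of macrophage number in the Mmp12 values was not tested. Exons of Mmp12 overlap those of Mmp1b on the other strand, which did not exceed 0.338 CPM.

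Mmp13 encodes collagenase-3, which cuts fibrillar collagen. Mmp13 measured 9.57, 14.2 and 7.14 CPM in the control tumors and 6.27, 5.07 and 15.2 CPM in the IFN-γ tumors. IFN-γ tumors 1 and 2 were under the lowest control, while IFN-γ tumor 3 was the highest of all 6. The log2 fold change was -0.22 ± 0.42 (SE) with an adjusted p of 0.901 (edgeR), and -0.87 with an adjusted p of 0.176 without IFN-γ tumor 3. The sign of the fold change therefore depended on single tumors, as it turned positive when either control tumor 2 (0.08) or IFN-γ tumor 2 (0.05) was left out.

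The gelatinases Mmp2 and Mmp9 digest denatured collagen and collagen IV of basement membranes. Mmp9 (chr2:164940780-164955850, plus strand) encodes gelatinase B, a product of neutrophils, macrophages and osteoclasts. Its levels were 49.2, 18.04 and 25.2 CPM in the control tumors and 17.4, 20.1 and 10.9 CPM in the IFN-γ tumors. Control tumor 1 was the highest of the 6 and IFN-γ tumor 3 the lowest, and the groups overlapped because control tumor 2 fell between the values of IFN-γ tumors 1 and 2. The means were 30.8 ± 16.3 and 16.2 ± 4.70 CPM (SD, n = 3). Mmp9 had the largest fold change of the tested members, with a log2 value of -0.93 ± 0.36 (SE), an unadjusted p of 0.033 and an adjusted p of 0.437 (edgeR). Without IFN-γ tumor 3 it was -0.72 (adjusted p = 0.377), and without control tumor 1 it was -0.42 (adjusted p = 0.810). The size of the difference thus rested largely on control tumor 1.

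Neutrophil markers were low in all tumors. The list of 10 summed to 42.8, 30.3 and 30.1 CPM in the control tumors and to 45.6, 48.7 and 37.0 CPM in the IFN-γ tumors, of which Csf3r, a receptor also found on macrophages, made up 21.3 to 38.8 CPM. Ly6g, the defining neutrophil surface antigen, did not exceed 0.188 CPM. S100a9, an abundant neutrophil protein, was highest in control tumor 1 (9.13 CPM) and next highest in IFN-γ tumor 3 (7.98 CPM), the tumors with the most and the least Mmp9. Of the 5 neutrophil markers that were tested, 0 passed the threshold and 1 had an unadjusted p under 0.05, against 10.2% of all genes. The part of neutrophil content in the Mmp9 values was not tested.

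Mmp2 (chr8:92827291-92853420, plus strand) encodes gelatinase A, which is secreted mainly by fibroblasts and activated at the cell surface by MT1-MMP together with TIMP-2. It stood at 36.3, 26.3 and 47.1 CPM in the control tumors and at 45.9, 53.3 and 24.2 CPM in the IFN-γ tumors. The lowest and the highest value both belonged to the IFN-γ group, and the groups overlapped fully. The log2 fold change was 0.17 ± 0.29 (SE) with an adjusted p of 0.890 (edgeR), and 0.43 with an adjusted p of 0.343 without IFN-γ tumor 3. Its sign turned negative without control tumor 2 (-0.02) or IFN-γ tumor 2 (-0.06). The summed CPM of 10 fibroblast markers had a similar order, with 2156, 1659 and 3043 in the control tumors and 2724, 3014 and 1660 in the IFN-γ tumors, and 0 of the 10 passed the threshold (1 at an unadjusted p under 0.05). Col3a1, a fibrillar collagen, was the most abundant of that list. It ran from 636 to 1443 CPM in the control tumors and from 652 to 1421 CPM in the IFN-γ tumors. Single markers of the list did not all have the order of the sum. Dcn was highest in IFN-γ tumor 3 (393 CPM), where Mmp2 was lowest, and ran from 246 to 300 CPM in the controls. Dpt in IFN-γ tumor 3 (42.3 CPM) was also above all 3 controls. The part of fibroblast content in the Mmp2 values was not tested.

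Mmp14 (chr14:54431612-54445364, plus strand) encodes MT1-MMP, a membrane collagenase and the activator of pro-MMP-2. Mmp14 was even across the tumors, at 158.6, 163.2 and 153.8 CPM in the controls and at 172.0, 159.0 and 151.9 CPM in the IFN-γ group. The group means differed by less than the spread within either group (159 ± 4.72 and 161 ± 10.2 CPM, SD, n = 3). The log2 fold change was 0.02 ± 0.07 (SE), with an adjusted p of 0.952 (edgeR), and it turned to -0.01 when libraries were scaled by size alone. This was the smallest standard error but one among the members, and the value without IFN-γ tumor 3 was 0.05.

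Among the inhibitors, Timp1 (chrX:20870166-20874735, plus strand) encodes TIMP-1, an inducible inhibitor that also binds the proform of MMP-9. Timp1 measured 360, 290 and 275 CPM in the control tumors and 227, 232 and 389 CPM in the IFN-γ tumors. IFN-γ tumors 1 and 2 were under all 3 controls and IFN-γ tumor 3 was above them, the same arrangement as for Mmp13. The means were 308 ± 45.02 and 283 ± 92.1 CPM (SD, n = 3), with a log2 fold change of -0.13 ± 0.21 (SE) and an adjusted p of 0.885 (edgeR). Leaving out IFN-γ tumor 3 gave a log2 fold change of -0.43 with an adjusted p of 0.096.

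Timp2 (chr11:118301069-118355740, minus strand) encodes TIMP-2, which is made constitutively and bridges pro-MMP-2 to MT1-MMP. Timp2 was the most abundant member in CPM, at 576, 544 and 576 in the control tumors and 590, 626 and 632 in the IFN-γ tumors. All 3 IFN-γ tumors were above all 3 controls, by a small margin. The means were 565 ± 18.4 and 616 ± 22.8 CPM (SD, n = 3), the log2 fold change was 0.12 ± 0.07 (SE) and the adjusted p was 0.607 (edgeR). The value without IFN-γ tumor 3 was 0.10, and over the 6 fits that each left out a tumor it lay between 0.096 and 0.15.

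Timp3 (chr10:86300372-86349506, plus strand) encodes TIMP-3, which is held in the extracellular matrix and also inhibits ADAM17 and other ADAM proteases. Timp3 stood at 24.6, 54.9 and 44.9 CPM in the control tumors and at 61.1, 65.4 and 39.7 CPM in the IFN-γ tumors. IFN-γ tumors 1 and 2 were the highest of the 6, control tumor 1 was the lowest, and IFN-γ tumor 3 fell among the controls. The log2 fold change was 0.42 ± 0.28 (SE) with an adjusted p of 0.678 (edgeR), 0.60 with an adjusted p of 0.303 without IFN-γ tumor 3, and 0.15 without control tumor 1. Exons of Timp3 overlap Syn3 on the other strand, which ran from 0.338 to 0.938 CPM. Timp1 overlaps Syn1 on the opposite strand (0.928 to 2.29 CPM), and Timp2 overlaps Cep295nl on the same strand (1.40 to 2.91 CPM), in both cases without shared exons.

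**Figure D3:**
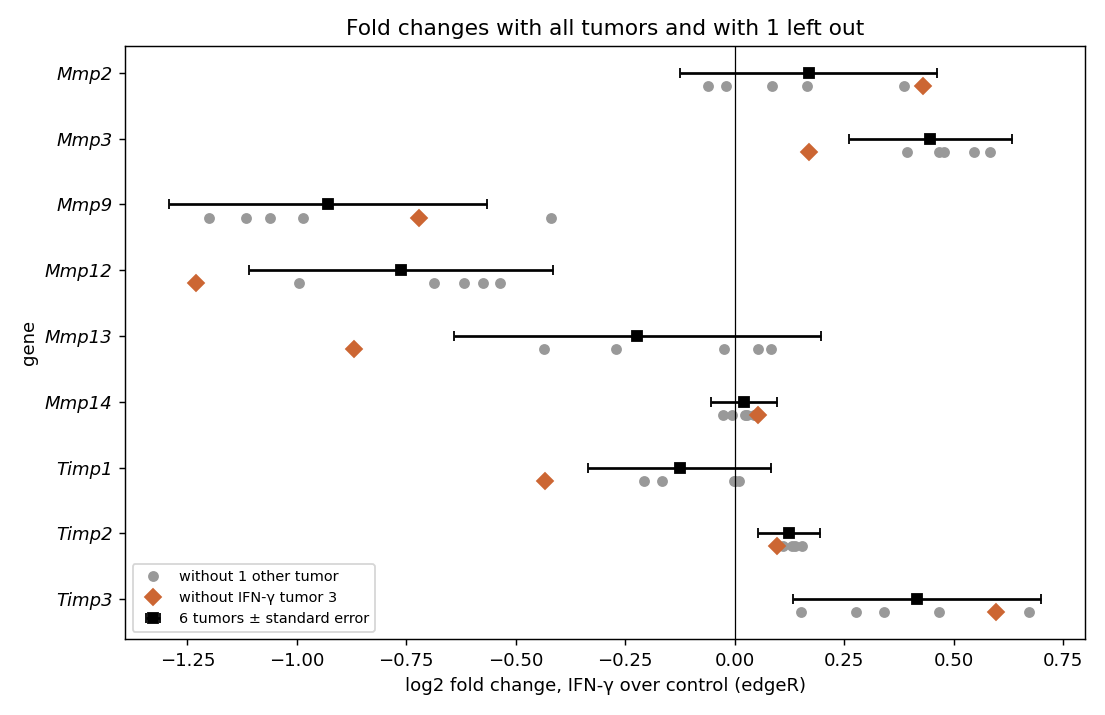
Log2 fold change of IFN-γ over control tumors from edgeR for the 9 tested members, with all 6 tumors (black squares, bars are ± 1 standard error), without IFN-γ tumor 3 (orange diamonds) and without each of the other tumors (grey circles). Leaving out IFN-γ tumor 3 gave the most negative value for Mmp12, Mmp13 and Timp1 and the lowest positive value for Mmp3, while Mmp14 and Timp2 moved little.

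The members compare by abundance only when their length is taken into account. Per kilobase of annotated exon sequence, the control means (SD, n = 3) were 347 ± 50.7 CPM for Timp1, 145 ± 4.72 for Timp2 and 26.6 ± 0.79 for Mmp14. They were followed by Mmp3 (14.8 ± 0.86), Mmp2 (10.9 ± 3.08), Mmp9 (8.71 ± 4.61), Timp3 (5.09 ± 1.89), Mmp13 (3.86 ± 1.34), Mmp12 (2.26 ± 0.71) and Mmp10 (0.226 ± 0.123). The top of this order was separated in every control tumor, Timp1 from Timp2, Timp2 from Mmp14 and Mmp14 from Mmp3, as was Mmp12 from Mmp10. The neighbours from Mmp3 down to Mmp12 overlapped in their control values, so their order is not fixed by these tumors. The exon length of Mmp12 (7237 bases) comes from 7 annotated transcripts, and that of Timp1 is 888 bases. If only part of the exon sequence is transcribed, the value per kilobase printed here is too low.

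The summed CPM of the 7 MMPs was nearly constant, at 292, 270 and 277 in the control tumors and 279, 275 and 267 in the IFN-γ tumors. Mmp14 made up 54.3% to 61.7% of that sum in every tumor. The remainder was divided differently from tumor to tumor. Mmp9 took 16.9% of the MMP sum in control tumor 1 and 4.10% in IFN-γ tumor 3, where Mmp3 took 18.2%, and Mmp2 was between 9.07% and 19.4%. The summed CPM of the 3 TIMPs was 960, 889 and 896 in the control tumors and 878, 923 and 1061 in the IFN-γ tumors. Timp2 made up 59.6% to 67.8% and Timp1 25.1% to 37.5% of that sum. These sums and shares are not scaled for length. Per kilobase, Timp1 was above Timp2 in every tumor, with control means of 347 and 145 CPM. Mmp14 was the highest MMP per kilobase except in IFN-γ tumor 3, where Mmp3 was above it (27.1 against 25.5 CPM).

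**Figure D4:**
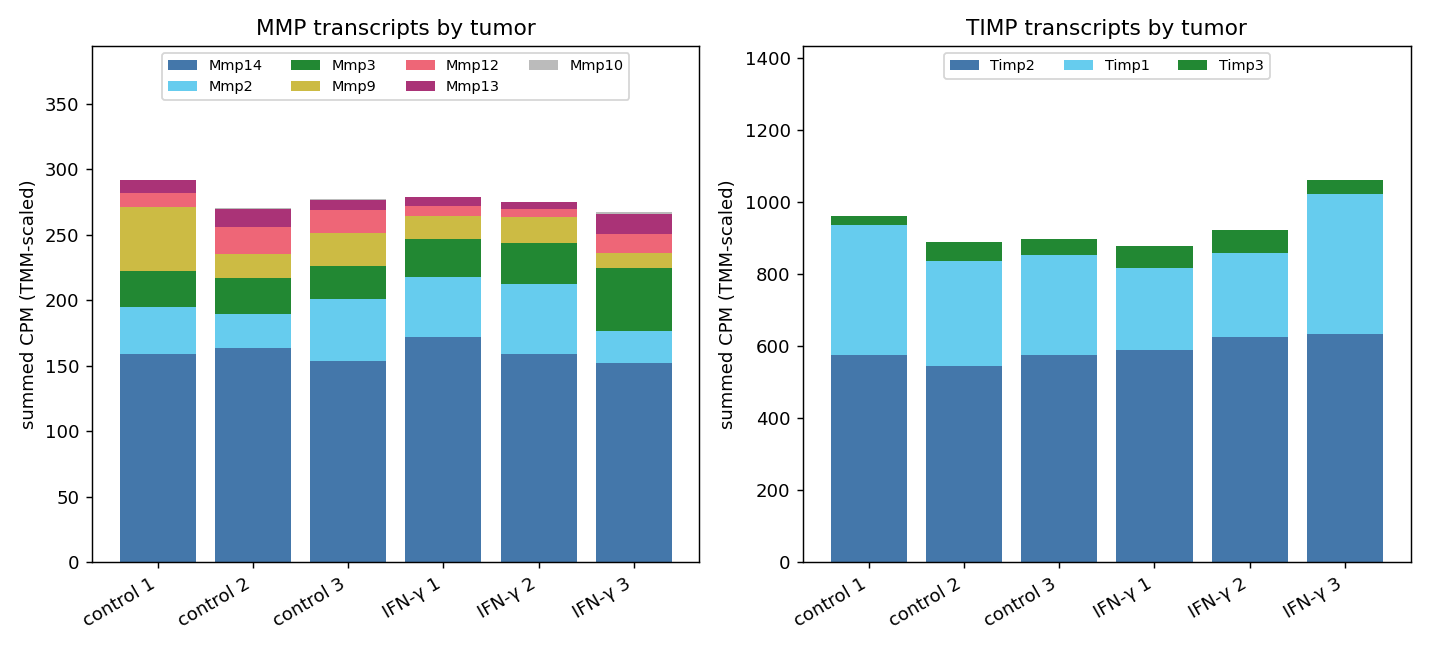
Summed CPM (TMM-scaled, not scaled for gene length, axes from 0) of 7 MMP genes (left) and 3 TIMP genes (right) in each tumor, stacked by gene. The MMP sum stayed between 267 and 292 CPM with Mmp14 as its largest part, and the TIMP sum was highest in IFN-γ tumor 3 at 1061 CPM.

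The ratio of the MMP sum to the TIMP sum was -1.72, -1.72 and -1.69 in the control tumors and -1.65, -1.74 and -1.99 in the IFN-γ tumors, as log2 values with 0.5 CPM added to each sum. IFN-γ tumor 1 had the highest ratio and IFN-γ tumor 3 the lowest, so the groups overlapped. The group means differed by -0.09 on the log2 scale, and by 0.0091 when IFN-γ tumor 3 was left out. The sums are not scaled for length, so Timp2 and Mmp14 weighed most in this ratio. No ratio of values per kilobase was taken, so the small difference holds for unscaled CPM only. Among 32 ratios of single MMPs and their sum to each TIMP and to their sum, 5 did not overlap between the groups, about the share found among all genes tested (15.1%). These ratios share members and are given as a description, with no test. Mmp3 relative to Timp1 was -3.69, -3.37 and -3.44 in the control tumors and -2.94, -2.88 and -2.98 in the IFN-γ tumors. IFN-γ tumor 3, which stood apart for Mmp3 and for Timp1 singly, was level with the other IFN-γ tumors in this ratio, and the means differed by 0.57 on the log2 scale. Mmp9 relative to Timp3 was 0.99, -1.58 and -0.82 in the control tumors and -1.78, -1.68 and -1.81 in the IFN-γ tumors. The difference of the means, -1.29, owed most to control tumor 1. The other ratios without overlap were Mmp3 over the TIMP sum (0.35), Mmp9 over Timp2 (-0.95) and the MMP sum over Timp2 (-0.15).

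Genes with the most similar pattern were found for each member by the root mean square (RMS) difference of centred log2(CPM + 0.5) profiles over the 6 tumors, among 11331 tested genes with a mean of at least 5 CPM. With 6 tumors and so many genes some close matches are to be had for any profile, and no test was applied. The nearest to Mmp9 was Ctsk, the gene of the collagen-degrading protease cathepsin K, with an RMS difference of 0.127 against 0.642 for the spread of Mmp9 itself. Ctsk stood at 39.2, 13.5 and 18.7 CPM in the control tumors and at 16.1, 18.2 and 8.22 CPM in the IFN-γ tumors. The next were Acp5, which encodes tartrate-resistant acid phosphatase (0.316), and Crispld2 (0.326), both far less alike than Ctsk. For Mmp13 the nearest were Grem1, a secreted BMP antagonist (0.103), Btc, the EGF receptor ligand betacellulin (0.142), and Slc14a1, a urea transporter (0.160).

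Mmp2 was most like Il3ra, an interleukin receptor chain (0.0958), Loxl1, a collagen and elastin crosslinking oxidase (0.0988), and Pltp, a phospholipid transfer protein (0.107). Timp1 had the closest neighbours of the variable members, Lxn, which encodes the carboxypeptidase inhibitor latexin (0.0295), Csrp2, a LIM domain protein (0.0342), and P2ry2, a nucleotide receptor (0.0658), against a spread of 0.291. Mmp3 was nearest to Bcl2l1 (0.0727), Thap11 (0.0967) and Rdh10 (0.103). Timp3 was nearest to Fut4 (0.109), Plbd1 (0.110) and Gm10134 (0.142). Mmp12 had no close neighbour, with Aqp8 (0.242), Sox2 (0.250) and Lgr6 (0.285) as its nearest against a spread of 0.596. The profile of Mmp10 rests on 3 to 18 counts a tumor and was nearest to mt-Nd6 (0.117), mt-Rnr1 (0.129) and Mgp (0.206). For the even members Mmp14 and Timp2 the nearest genes were Mbnl1, Rbm5 and Fbxl5, and Atp5a1, Scand1 and Pfn2, which likewise varied little.

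**Figure D5:**
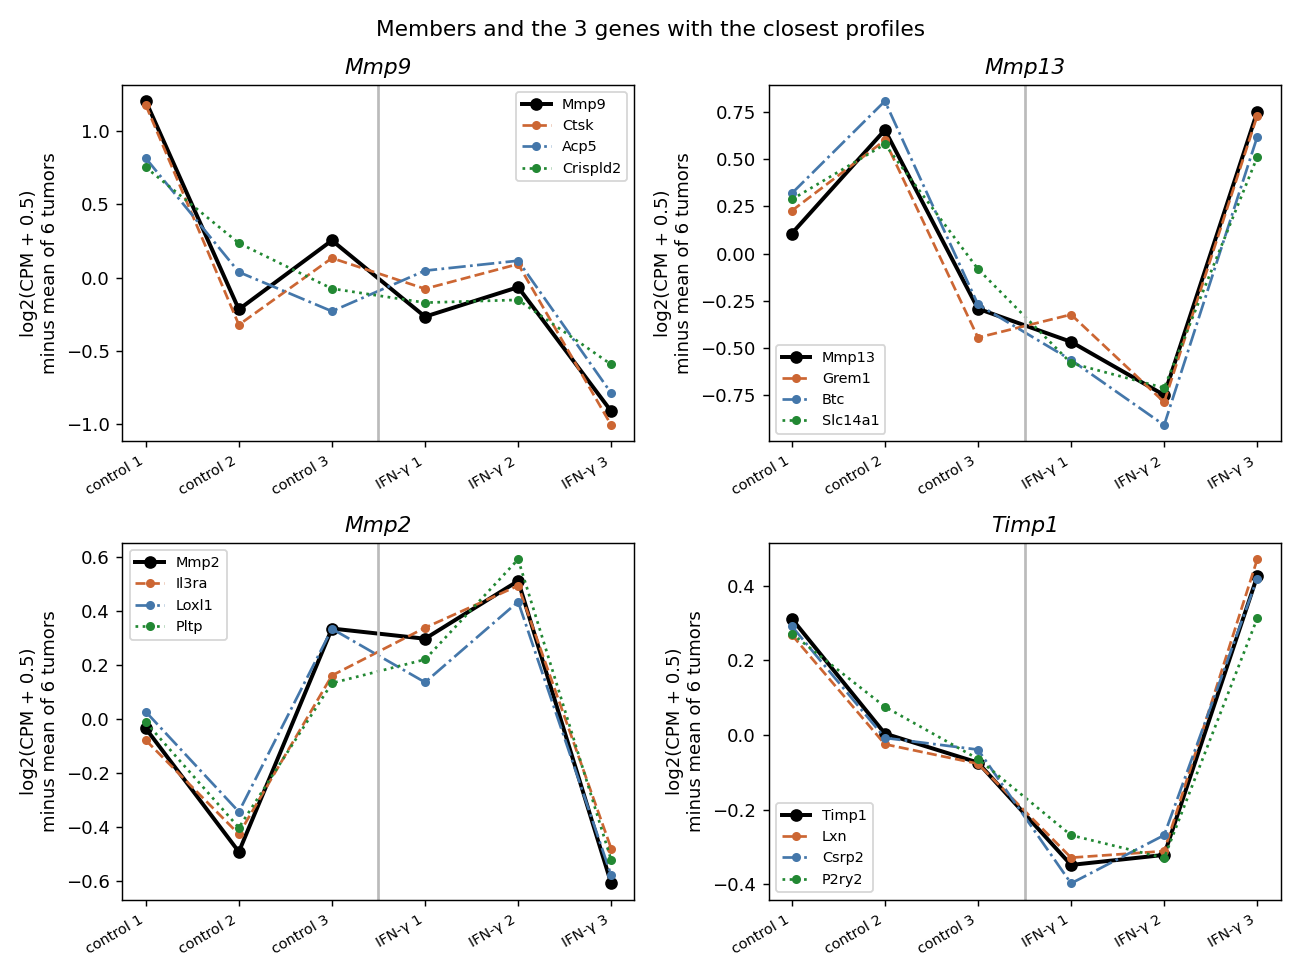
Log2(CPM + 0.5) minus its mean over the 6 tumors for Mmp9, Mmp13, Mmp2 and Timp1 (black) and the 3 genes with the closest profile to each (dashed and dotted lines), with control and IFN-γ tumors on either side of the grey line. Ctsk followed Mmp9 in all 6 tumors, including the peak in control tumor 1 and the low value in IFN-γ tumor 3, and each member had its own order of tumors.

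Of 17 further genes of the family, 8 passed the filter on low counts. Of these, 0 passed the threshold and 2 had an unadjusted p under 0.05 (edgeR), against 10.2% of all genes. Mmp7, the matrilysin of epithelial cells, and Mmp20, the enamelysin of teeth, had 0 counts in every tumor. Mmp19, a broadly expressed MMP, was 25.1, 24.6 and 31.7 CPM in the control tumors and 35.4, 37.4 and 42.8 CPM in the IFN-γ tumors. Its groups did not overlap and IFN-γ tumor 3 was the highest, with a log2 fold change of 0.51 ± 0.13 (SE) and an adjusted p of 0.262 (edgeR). Mmp15, the gene of membrane-type MT2-MMP, was 7.38, 9.13 and 7.89 CPM in the control tumors and 5.98, 6.11 and 4.08 CPM in the IFN-γ tumors, again without overlap (log2 fold change -0.59 ± 0.21, adjusted p = 0.389). Mmp25, the leukolysin of leukocytes, was 16.4 and 17.7 CPM in IFN-γ tumors 1 and 2, 3.46 CPM in IFN-γ tumor 3 and 4.19 to 8.79 CPM in the controls. Mmp25 therefore spread more within the IFN-γ group than between groups (log2 fold change 0.79, adjusted p = 0.678), and without IFN-γ tumor 3 its log2 fold change was 1.22 with an adjusted p of 0.053. Mmp11 (0.04), Mmp23 (0.25), Mmp27 (-0.12), Mmp28 (-0.28) and the neutrophil collagenase Mmp8 (-0.45) had log2 fold changes with adjusted p between 0.585 and 0.967.

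Genes that activate or restrain MMPs were read from the same fit, and 0 of the 19 tested of 23 passed the threshold, with 8 at an unadjusted p under 0.05. For this and the other lists, the share of all genes at an unadjusted p under 0.05 was 10.2%. Plat, the tissue plasminogen activator that generates plasmin, was 16.5, 13.3 and 17.3 CPM in the control tumors and 9.35, 9.16 and 7.61 CPM in the IFN-γ tumors. The groups did not overlap, IFN-γ tumor 3 included, and the log2 fold change was -0.85 ± 0.16 (SE) with an adjusted p of 0.141 (edgeR). Its adjusted p was 0.041 without IFN-γ tumor 3, 0.0018 under DESeq2 (1.47% of genes called) and 0.016 with no filter on low counts (0.819% called). The receptor Cd44, which docks MMP-9 and MT1-MMP at the cell surface, passed in the same 3 fits, with a log2 fold change of -0.39 and an adjusted p of 0.168 over the 6 tumors. The urokinase receptor Plaur passed in 1 of the fits run, that without IFN-γ tumor 3 (log2 fold change -0.59, adjusted p = 0.014). The median log2 fold change over the list was -0.02.

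Of the related ADAM and ADAMTS proteases, 18 of 21 were tested and 0 passed, with 3 at an unadjusted p under 0.05 and a median log2 fold change of -0.11, which was -0.04 with IFN-γ tumor 3 left out and -0.21 with IFN-γ tumor 1 left out. The aggrecanases Adamts4 (33.4, 38.1 and 30.3 CPM against 22.7, 15.7 and 22.7 CPM) and Adamts9 (17.6, 19.6 and 16 CPM against 12.7, 11.8 and 10.8 CPM) were lower in all 3 IFN-γ tumors, with log2 fold changes of -0.74 and -0.59 and an adjusted p of 0.222 each. Adamts4 passed under DESeq2, with no filter on low counts and without IFN-γ tumor 3, and Adamts9 passed under DESeq2. Of the matrix substrates, 19 of 20 were tested and 0 passed, with 5 at an unadjusted p under 0.05, log2 fold changes under 0 for 15 of the 19 and a median of -0.21. That median was -0.07 without control tumor 3 and -0.09 without IFN-γ tumor 3, and Spp1, the gene of osteopontin, passed in the latter fit (log2 fold change -0.48, adjusted p = 0.046). Col4a1, the basement membrane collagen that the gelatinases digest, was 646, 734 and 776 CPM in the control tumors and 629, 589 and 492 CPM in the IFN-γ tumors (-0.34, adjusted p = 0.374). Col6a2 had a log2 fold change of -0.32 with an adjusted p of 0.731.

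Of 21 AP-1, Ets and related transcription factors, 20 were tested and 0 passed, with 5 at an unadjusted p under 0.05 and a median log2 fold change of -0.01. Fos, an AP-1 subunit of the early response to stimuli, was 69.5, 43.1 and 177 CPM in the control tumors and 148, 230 and 80.2 CPM in the IFN-γ tumors. Fos and Fosb varied up to several fold within either group (log2 fold changes 0.66 and 0.50, adjusted p = 0.730 and 0.803). Within the IFN-γ group, IFN-γ tumor 3 had the lowest Fos and Fosb, while Jun (217 CPM), Jund (100.1 CPM), Fosl1 (133 CPM) and Fosl2 (101 CPM) were highest there. Jun (214 CPM) and Jund (99.0 CPM) were almost as high in IFN-γ tumor 2. Junb was highest in IFN-γ tumor 2 (173 CPM) and 157 CPM in IFN-γ tumor 3, so the AP-1 subunits had no common order. Fosl1 passed the threshold without IFN-γ tumor 3 (log2 fold change -0.44, adjusted p = 0.049). Of 24 cytokines, growth factors and receptors known to induce MMPs, 22 were tested and 0 passed, with 3 at an unadjusted p under 0.05 and a median of -0.09, which ran from -0.18 without control tumor 1 to 0.03 without IFN-γ tumor 3. In the latter fit Hbegf, an EGF receptor ligand, passed the threshold (log2 fold change -0.75, adjusted p = 0.010, against -0.31 and 0.745 with all tumors). Csf2 and Il1a had the largest log2 fold changes, -0.65 and -0.74, with adjusted p of 0.617 and 0.745 and means of at most 1.64 CPM. Of the 18 IFN-γ response genes, 0 passed and 10 had an unadjusted p under 0.05, with a median of 0.69 and all 18 above 0. IFN-γ tumor 3 was set apart in part by these same 18 genes, so the fit without it gives no separate support for their difference. In that fit 14 of the 18 passed, against 3.18% of all genes, with a median of 1.02. With no filter on low counts 4 passed, against 0.819% of all genes. Ciita, the class II transactivator, had a log2 fold change of 1.12 (adjusted p = 0.420), and H2-Ab1, a class II chain, had 1.14 (adjusted p = 0.257), and both passed without IFN-γ tumor 3.

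Markers of other cell types moved with some of these values. The 7 keratinocyte markers were high in IFN-γ tumor 3, with Krt14 at 33.2 CPM there, 3.88 CPM in control tumor 1 and at most 0.457 CPM in the other 4 tumors. IFN-γ tumor 3 and control tumor 1 also had the most Timp1, and IFN-γ tumor 3 the most Mmp3, Mmp10, Mmp13 and Timp2. Control tumor 1 was not next highest for Mmp3, Mmp10, Mmp13 or Timp2. Other members went the other way, as Mmp2, Mmp9 and Mmp14 were lowest in IFN-γ tumor 3. The 10 epithelial and colon markers summed to 166 to 188 CPM in the control tumors and 123 to 283 CPM in the IFN-γ tumors, a sum made mostly by Krt20 (271 of 283 CPM in IFN-γ tumor 3). In that tumor Krt8 (0.186 CPM) was the lowest of the 6 and Cdh1 (1.67 CPM) was under every control, and the median log2 ratio of the list to the control mean was -0.13. The 7 adipocyte markers, such as Adipoq at 0.451 to 1.81 CPM in the control tumors and 3.13 to 6.84 CPM in the IFN-γ tumors, summed to 118 to 161 and 172 to 222 CPM. Of these, 6 of 7 did not overlap, against 15.1% of all genes. None passed the threshold, and 6 had an unadjusted p under 0.05, against 10.2% of all genes. Endothelial markers summed to 252 to 319 and 209 to 277 CPM, skeletal muscle markers to 136 to 889 and 158 to 477 CPM, and T cell markers to 41.1 to 59.6 and 33.3 to 96.0 CPM, with 0 past the threshold in each list and 2, 0 and 0 at an unadjusted p under 0.05. The part of these cell types in the MMP and TIMP values was not tested.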

How the data were processed

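RNA was sequenced from 3 control and 3 IFN-γ tumors. The authors deposited whole-number read counts per gene, without normalization. The submitters' processing notes name HISAT2 and mm10. The counting program, its version and the use of strand are not given in the sources used here, so overlapping genes and close paralogues are uncertain. Depth was 15759300 to 17559680 counts per tumor, and 28619 of 55487 genes had 0 counts in every tumor.

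Counts were tested with edgeR 4.0.16 in R 4.3.3 (TMM factors, default filter on low counts, quasi-likelihood test, Benjamini-Hochberg adjustment, threshold 0.05), with all 6 tumors in the fit and no covariate. The standard error is the size of the log2 fold change divided by the square root of F. Mmp10, under the filter, was compared by an exact permutation test (SciPy 1.17.1). Alternatives were DESeq2 1.42.0, limma 3.58.1 (voom), RLE and upper-quartile factors, library size alone, no filter, a filter of 1 CPM in 3 tumors, a replicate block, and leaving out each tumor. Lists were described by counts and medians, with no set test. On simulated data for this comparison (14901 genes, 200 changed 2-fold) edgeR recovered 89.0% with 10 false calls. DESeq2 recovered 92.5% with 38 and limma-voom 88.5% with 9. These shares are for the changed genes together and were not taken for genes as variable as Mmp9, Mmp12 and Mmp13. They therefore do not give the power to find a 2-fold change in those members. Mmp9, with a log2 fold change of -0.93, had an adjusted p of 0.437 (edgeR). No libraries looked like duplicates, with correlations of log2 CPM from 0.980 to 0.993 and at least 6.18 for the chi-square per gene of any pair.

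Named were all members, every tested gene of the rest of the family, of each other pathway list the genes past the threshold or otherwise the 2 with the largest log2 fold change among those with a mean of at least 1 CPM, markers by level, and the 3 closest profiles of each member. A gene of the list of MMP activation and inhibition that this rule names is not reported here. Cd44, Plaur, Hbegf, Spp1, the further AP-1 subunits, Mrc1, Col3a1, Dcn and Dpt were chosen after their values were seen. So were the keratinocyte, neutrophil and epithelial genes outside that rule. The members and lists were chosen with earlier results of these data known. Gene positions are from GENCODE M21 (GRCm38), which held 99.5% of the identifiers, and promoter sequences from RefSeq (GRCm38.p6).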

Additional observations from a re-analysis of the deposited data

How the results depend on the processing

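Over the 14 alternative fits, 0 members passed the threshold. In 126 values of single members, 117 kept their direction and side of the threshold and 9, of 4 members, changed direction. Mmp14 turned to -0.011 with library size alone, -0.0066 without control tumor 3 and -0.027 without IFN-γ tumor 1. Leaving out single tumors moved Mmp2 between -0.062 and 0.43, with -0.020 without control tumor 2, Mmp13 between -0.87 and 0.083, with 0.054 without IFN-γ tumor 2, Mmp14 between -0.027 and 0.054, and Timp1 between -0.43 and 0.010, with 0.00037 without control tumor 1. The cause was not tested.

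With all 6 tumors, edgeR called 12 genes higher and 5 lower. Library size alone gave 7 higher, DESeq2 125 higher and 71 lower, limma-voom 3 lower, and no filter on low counts 150 higher and 70 lower. Leaving out single tumors gave 4 to 381 higher and 2 to 112 lower, the highest of both without IFN-γ tumor 3. Of the genes in the 7 pathway lists, 0 passed with all tumors, 5 under DESeq2, 8 with no filter, and 0 to 22 without single tumors, with 22 without IFN-γ tumor 3. The labels do not say whether the replicate numbers pair the tumors. The correlations of the deviations from the group means were -0.24, -0.0047 and -0.22, so tumors of the same number shared no deviation. These values cannot tell how the tumors were collected. A fit with the replicate block gave 5 higher and 2 lower genes. Mmp10 and Mmp13, with 3 to 18 and 83 to 252 counts, had the fewest counts of the members.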
